A study of Mus musculus with 2 samples.

Results

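MHC class II genes are described here across the immune cells of mouse tumours. They are 9 of the 32285 genes in the deposited matrices, taken by symbol: H2-Aa, H2-Ab1, H2-Eb1, Cd74, Ciita, H2-DMa, H2-DMb1, H2-DMb2 and H2-Oa. All 9 were found. The data are 2 droplet single-cell RNA libraries of CD45+ cells, named Control and Arg, so each group is 1 library and no difference between them has a replicate check or a test. Per the design text, BALB/c mice aged 5 weeks were fed either a normal diet (Control) or a diet of equal calories without arginine, begun 1 week before CT26 cells, a mouse colon carcinoma line, were placed under the skin, and tumours were collected at day 20. Arg is taken here to be the diet without arginine because of that text, since the label of the library names no diet. The labels do not say how many mice were used per library, and all mice of both groups carried the same tumour line.

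MHC class II molecules are pairs of an alpha and a beta chain that display peptides from engulfed proteins to CD4 T cells. The chains assemble with the invariant chain CD74, which fills the peptide groove until proteases cut it away in endosomes. H2-DM then swaps the remaining fragment for other peptides, and H2-O restrains H2-DM in B cells and some dendritic cells. CIITA, a coactivator that does not bind DNA itself, switches on these genes together through the X and Y boxes of their promoters, and interferon gamma induces it in macrophages and many other cells.

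H2-Aa and H2-Ab1 encode the chains of the I-A molecule, and H2-Eb1 encodes the beta chain of I-E. H2-Ea and H2-Ea-ps were not matched in the matrices, so the alpha chain of I-E is not described. On GRCm38, in the GENCODE M21 annotation, the protein-coding genes H2-Oa (34092340 to 34095234), H2-DMa (34119541 to 34139101), H2-DMb2 (34143307 to 34151555), H2-DMb1 (34153072 to 34160230), H2-Ab1 (34257689 to 34269419), H2-Aa (34282744 to 34287823, minus strand) and H2-Eb1 (34305867 to 34316674) lie in this order in the MHC on chromosome 17. Ciita lies on chromosome 16 (10480059 to 10528418). Promoter stretches of 5 members are shown because they carry the Y box, the letters shared by these coregulated genes. They are 80 bases each, from RefSeq's GRCm38.p6 promoters, 5′ to 3′ on the strand of the gene. Capitals mark TGATTGG, the core of the Y box, and, where it was found, the X-box-like ACTGATG.
H2-Aa, chr17:34287849-34287928, minus strand: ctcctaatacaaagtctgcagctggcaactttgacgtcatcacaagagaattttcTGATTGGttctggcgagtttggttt
H2-Eb1, chr17:34305751-34305830, plus strand: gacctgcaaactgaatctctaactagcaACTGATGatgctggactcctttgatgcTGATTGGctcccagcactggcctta
H2-DMb1, chr17:34153073-34153152, plus strand: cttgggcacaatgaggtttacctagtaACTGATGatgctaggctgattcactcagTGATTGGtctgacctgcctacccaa
H2-DMb2, chr17:34145102-34145181, plus strand: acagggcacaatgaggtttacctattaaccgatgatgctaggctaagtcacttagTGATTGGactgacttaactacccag
H2-Oa, chr17:34092279-34092358, plus strand: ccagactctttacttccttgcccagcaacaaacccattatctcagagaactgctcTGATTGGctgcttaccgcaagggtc

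Both motifs were chosen after these letters had been seen, and both strands were searched. TGATTGG was in 2568 of 32851 promoters of the same table (7.82%) and ACTGATG in 1048 (3.19%), and the motifs do not overlap in the stretches shown. The X-box-like letters ended 20 bases before the Y box core in H2-Eb1 and 21 bases before it in H2-DMb1. Both motifs in this order, 10 to 30 bases apart, were in 7 of the 32851 promoters (0.0213%). Neither motif was found on the strand of the gene in the promoters listed for H2-DMa. H2-Ab1, Cd74 and Ciita were not matched in the table. A match is a description of letters and not a measured binding site. The letters are those of the reference. Whether BALB/c mice carry them, and how well their reads matched the reference at these genes, was not tested.

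Cells were grouped without the class II genes, and groups took their names from marker genes. "Macrophage" and the other names mean cells like that type. Conventional dendritic cells of type 1 (cDC1) numbered 167 in Arg and 170 in Control, those of type 2 (cDC2) 325 and 148, mature dendritic cells 123 and 107, and plasmacytoid dendritic cells (pDC) 196 and 163. Macrophages numbered 3521 and 4750, monocytes 3573 and 1536, nonclassical monocytes 365 and 351, and B cells 33 and 29. T and NK cells, 3267 and 2874 lymphocytes in all, served as background, since mouse T and NK cells are not known to make class II protein. Their counts of the members other than H2-Oa are read here as background, such as RNA set free from other cells. All markers of the macrophage, mature DC, pDC and B cell sets were found in at least 20% of the cells of their class in each library. For the cDC1 and monocyte sets this held for 6 of 7 markers and for cDC2 for 5 of 6, whereas nonclassical monocytes reached it for 4 of 6 in Arg and 3 of 6 in Control. The latter class, led by Hp, Adgre4, Ace, Ifitm6 and Chil3, also held the monocyte markers at a summed 7878 CPM in Arg and 9301 CPM in Control, above the 4637 and 5714 CPM of the monocytes. Its own markers summed to 500.1 and 306 CPM, against 31.3 and 40.3 CPM in monocytes.

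Levels are UMIs, single captured transcripts, summed over the cells of a class and given per 1000000 UMIs of the class (CPM). Their 95% Poisson intervals, like all intervals here, cover counting error only and say nothing of how mice differ. Depth after filtering was a median of 8294 UMIs per cell in Arg and 10021 in Control. The libraries shared 44 cell barcodes, 0.303% and 0.307% of their totals.

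The alpha chain gene H2-Aa was highest in conventional dendritic cells. In cDC2 it was at 9256 CPM in Arg (9161 to 9352) and 8935 CPM in Control (8791 to 9079). In cDC1 it was at 7710 CPM in Arg (7611 to 7811) and 8174 CPM in Control (8075 to 8274). These classes led in each library and differed little between libraries. Mature dendritic cells were next, at 5873 CPM in Arg (5762 to 5986) and 3964 CPM in Control (3870 to 4060). Monocytes held 5463 CPM in Arg (5438 to 5488) and 2537 CPM in Control (2511 to 2564), and macrophages 2781 CPM (2765 to 2797) and 1571 CPM (1562 to 1581). In these 3 classes the Arg value was the higher one. Nonclassical monocytes were at 2367 CPM in Arg (2307 to 2428) and 1463 CPM in Control (1418 to 1509). Plasmacytoid dendritic cells were at 1865 CPM (1807 to 1924) and 1700 CPM (1635 to 1768). B cells were at 3012 CPM in Arg (2735 to 3309) and 3725 CPM in Control (3421 to 4049). In Arg the order from high to low was cDC2, cDC1, mature DC, monocyte, B, macrophage, nonclassical monocyte and pDC, and the intervals of B cells and macrophages overlapped. In Control it was cDC2, cDC1, mature DC, B, monocyte, pDC, macrophage and nonclassical monocyte, and those of mature dendritic cells and B cells overlapped.

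**Figure D1:**
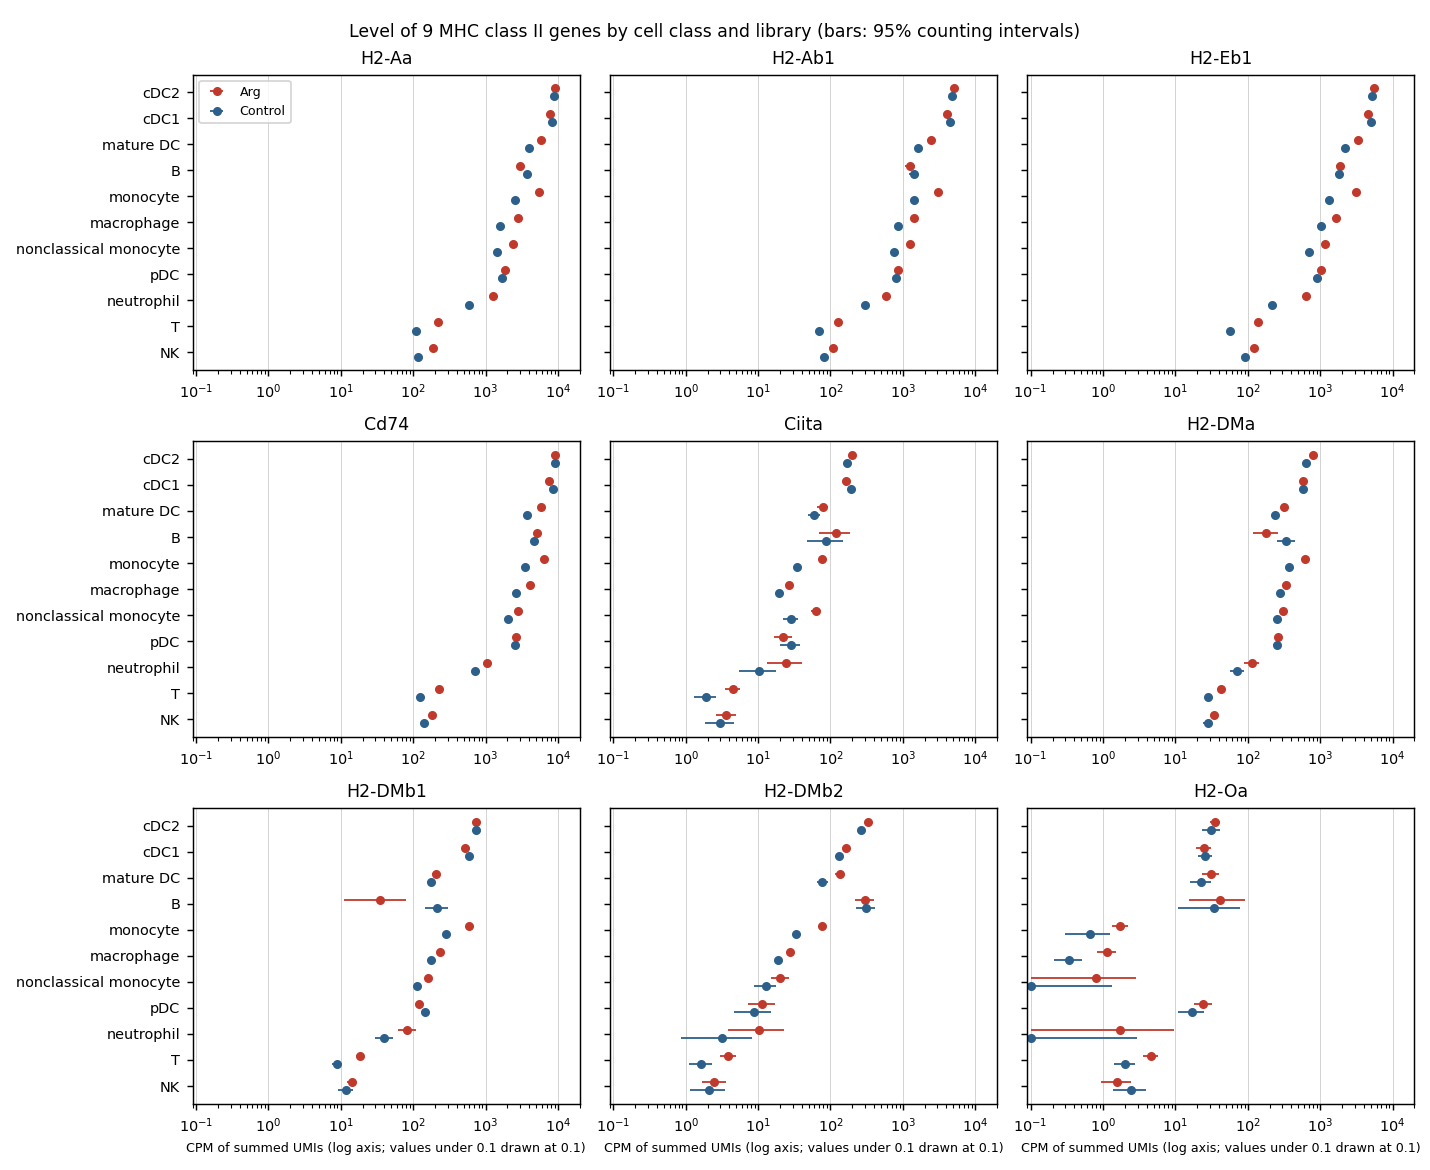
CPM of each member (log axis, values under 0.1 drawn at 0.1) in 11 cell classes of the Arg and Control libraries, 1 point per library with its 95% Poisson interval. For H2-Aa, H2-Ab1, H2-Eb1, Cd74, H2-DMa and H2-DMb1 the cDC2 point lies furthest to the right in each library, T and NK cells lie to the left of the dendritic cells for every gene, and monocytes and macrophages are separated by library.

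Lymphocytes set the background at 205 CPM of H2-Aa in Arg (200 to 211) and 111 CPM in Control (107 to 115). This background was itself 1.86-fold higher in Arg (1.77 to 1.94), and its part in the differences described below was not tested beyond the values given here. T cells held 218 and 108 CPM and NK cells 189 and 117 CPM. Macrophages stood 13.6-fold above the lymphocytes of their own library in Arg and 14.2-fold in Control, and monocytes 26.6-fold and 22.9-fold. Taking the lymphocyte level off each member left the median log2 ratio of Arg over Control at 0.54 in macrophages and at 1.07 in monocytes, against 0.56 and 1.06 before.

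The beta chain genes were also highest in cDC2 and next highest in cDC1 in each library, but the order of the other classes differed from that of H2-Aa. H2-Ab1 was at 3084 CPM in monocytes and 2425 CPM in mature dendritic cells in Arg. In Control, macrophages were above pDC for H2-Ab1 (856 and 808 CPM) and for H2-Eb1 (1034 and 899 CPM). H2-Ab1 was at 5026 CPM in Arg and 4765 CPM in Control in cDC2, and at 1416 and 856 CPM in macrophages. H2-Eb1 was at 5588 and 5146 CPM in cDC2 and at 1640 and 1034 CPM in macrophages. Profiles were made of each named class with at least 20 cells in each library. They were the dendritic, macrophage, monocyte, nonclassical monocyte, B, T, NK, neutrophil, mast or basophil and fibroblast classes. Cluster 9, low in Ptprc, made up 92.2% of the Arg and 93.2% of the Control fibroblast class. Over 26 profiles, the class sums of these 13 classes in each library, log2 levels of H2-Aa had a Pearson r of 0.996 with H2-Ab1 and of 0.995 with H2-Eb1. These are descriptions, since profiles of a library share its depth and its free RNA. H2-Eb1 overlaps the antisense gene Gm20513, which lies on the opposite strand and has counts of its own. No source used here states that counting used the strand, and how cleanly reads were split between these genes was not tested.

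Cd74, the invariant chain gene, was at 9014 CPM in Arg and 9134 CPM in Control in cDC2. In macrophages it was at 4066 CPM in Arg and 2610 CPM in Control, in monocytes at 6457 and 3498 CPM, and in B cells at 5116 and 4614 CPM. Lymphocytes held 207 and 127 CPM. Capture of 3′ ends is not per length and can differ between genes, so only the change between classes in the share of Cd74 is read. Of the UMIs of H2-Aa, H2-Ab1, H2-Eb1 and Cd74 together, Cd74 made up 31.2% in Arg (30.9 to 31.5, exact Clopper-Pearson interval) and 32.6% in Control (32.2 to 33.1) in cDC2. Macrophages had 41.1% in Arg (40.9 to 41.2) and 43.0% in Control (42.8 to 43.1), and monocytes 35.7% (35.6 to 35.8) and 40.0% (39.7 to 40.3). Macrophages thus carried more Cd74 per chain transcript than conventional dendritic cells in each library.

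The H2-DM genes encode the peptide editor. H2-DMa, its alpha chain, was at 799 CPM in Arg and 641 CPM in Control in cDC2, at 617 and 375 CPM in monocytes and at 338 and 275 CPM in macrophages, against 38.6 and 27.8 CPM in lymphocytes. H2-DMb1 and H2-DMb2 encode alternative beta chains. H2-DMb1 was at 732 and 747 CPM in cDC2, at 593 and 285 CPM in monocytes and at 233 and 177 CPM in macrophages. H2-DMb2 was at 330 and 263 CPM in cDC2, at 77.1 and 33.6 CPM in monocytes and at 28.0 and 18.6 CPM in macrophages. The balance of the beta chains differed by class. H2-DMb2 gave 10.7% of their joint UMIs in Arg macrophages (10.1 to 11.3) and 9.51% in Control (9.01 to 10.0), but 31.1% (29.7 to 32.5) and 26% (23.9 to 28.2) in cDC2. Mature dendritic cells were at 39.4% (35.5 to 43.4) and 30.5% (26.1 to 35.1), and B cells at 89.6% (77.3 to 96.5) and 59.0% (47.25 to 69.99). The share of H2-DMb2 was higher in Arg in macrophages, cDC2 and mature dendritic cells. B cells, 33 in Arg and 29 in Control, held 74 and 128 UMIs of the H2-DM genes and are not compared between libraries. The transcripts share sequence: 38.3% of the 30-base words of H2-DMb1 occur in H2-DMb2 and 30.2% of its last 500, whereas 35.1% of the words of H2-DMb2 occur in H2-DMb1 and 3.6% of its last 500. Reads could be split between them, more so near the 3′ end of H2-DMb1. H2-DMa overlaps Brd2, on the opposite strand, and other annotated transcripts.

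H2-Oa, the alpha chain of the H2-DM inhibitor, had another distribution. It was at 35.5 CPM in Arg and 31.3 CPM in Control in cDC2, at 24.8 and 25.9 CPM in cDC1, at 31.0 and 22.3 CPM in mature dendritic cells and at 24.2 and 16.7 CPM in pDC. B cells held 6 UMIs in Arg and 5 in Control, which is 41.5 CPM (15.2 to 90.4) and 33.7 CPM (10.9 to 78.6). In macrophages it was at 1.12 and 0.337 CPM and in monocytes at 1.72 and 0.651 CPM, under the 3.30 and 2.09 CPM of lymphocytes. In macrophages and monocytes the mean over the libraries was under 10 CPM, the limit used here, so these values are not read as expression. T cells held 4.61 CPM in Arg and 1.98 CPM in Control. Per 1000 UMIs of H2-Aa they had 21.2 and 18.3 UMIs of H2-Oa, whereas macrophages had 0.404 and 0.214, monocytes 0.316 and 0.257, and cDC2 3.83 and 3.503. NK cells had 8.37 and 20.6, on 19 and 16 UMIs of H2-Oa, pDC 12.97 and 9.84 and B cells 13.8 and 9.04. Of these classes the ratio was highest in T cells in Arg and in NK cells in Control. Whether the H2-Oa of lymphocytes is free RNA was not tested, so their level is not taken as the background of this gene. H2-Oa overlaps BC051537 on the opposite strand. Its Pearson r with H2-Aa over the 26 profiles was 0.640, the lowest of the other 8 members. H2-Ob, the partner chain, was at 187 CPM in Arg and 189 CPM in Control in B cells and at 37.2 and 61.0 CPM in cDC1. In cDC1 it was past the 1.5-fold limit used below, lower in Arg (log2 ratio -0.65), where 3.05% of all genes tested were. Its log2 ratio was -0.48 in cDC2 and 0.30 in mature dendritic cells, within that limit.

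Ciita, the coactivator, varied widely between classes. It was at 198 CPM in Arg and 171 CPM in Control in cDC2 and at 164 and 193 CPM in cDC1. B cells held 17 and 13 UMIs, at 118 CPM (68.6 to 188) and 87.6 CPM (46.6 to 150). Mature dendritic cells were at 78.1 and 59.9 CPM, monocytes at 75.6 and 34.4 CPM, nonclassical monocytes at 62.4 and 28.1 CPM, macrophages at 26.4 and 19.2 CPM, and pDC at 22.3 and 28.1 CPM. Lymphocytes were at 4.12 and 2.17 CPM. Ciita overlaps Dexi on the opposite strand. Its r with H2-Aa was 0.958.

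Arg and Control were then compared class by class, for the 8 or 9 members with a mean of at least 10 CPM over the libraries. A member is called where log2 of its CPM plus 5 differed by at least 1.5-fold. In monocytes all 8 measured members were called higher in Arg, where 2.13% of the 7228 genes tested were higher and 1.78% lower. Their median log2 ratio was 1.06 and that of all genes tested was 0.06. H2-Eb1 was 2.35-fold higher in Arg (2.32 to 2.39), H2-Ab1 2.2-fold (2.17 to 2.23) and H2-Aa 2.15-fold (2.13 to 2.18). Ciita, with 2585 UMIs in Arg and 476 in Control, was 2.19-fold higher (1.99 to 2.42). Cd74 and H2-DMa had the smallest ratios, at 1.85-fold (1.83 to 1.86) and 1.65-fold (1.60 to 1.70). H2-DMa was under the 1.5-fold call at 1 common mix of clusters (log2 ratio 0.50), with class II genes used for clustering (0.52), at cluster resolution 0.5 (0.57) and without the mitochondrial filter (0.58). The chains, their chaperone, the editor and the coactivator were thus all higher in the Arg monocytes.

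In macrophages all 8 measured members were higher in Arg and 4 were called, H2-Aa, H2-Ab1, H2-Eb1 and Cd74, where 5.38% of 7726 genes were called higher and 4.15% lower. Their median log2 ratio was 0.56, against -0.0021 for all genes. H2-Aa was 1.77-fold higher (1.75 to 1.78), H2-Ab1 1.65-fold (1.64 to 1.67), H2-Eb1 1.59-fold (1.57 to 1.60) and Cd74 1.56-fold (1.55 to 1.57). H2-DMb2 was 1.51-fold higher (1.39 to 1.63) but not called with 5 CPM added, and Ciita was 1.37-fold higher (1.26 to 1.49). H2-DMa, at 1.23-fold (1.2 to 1.26), had the smallest ratio, and UMIs of H2-DMa, H2-DMb1 and H2-DMb2 per 100 UMIs of the 3 chain genes were at 10.3 in Arg and 13.6 in Control.

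Nonclassical monocytes had all 8 measured members higher in Arg and 4 called, where 4.85% of 7178 genes were called higher and 2.44% lower, with a median log2 ratio of 0.59 against 0.05. Ciita was 2.22-fold higher (1.68 to 2.96) on 156 and 77 UMIs, H2-Ab1 1.71-fold (1.62 to 1.81), H2-Eb1 1.70-fold (1.60 to 1.80) and H2-Aa 1.62-fold (1.55 to 1.68). For H2-DMb2, on 50 and 35 UMIs, the interval reached from 0.997 to 2.49. Without the mitochondrial filter H2-Aa, H2-Ab1 and H2-Eb1 were no longer called, at log2 ratios of 0.50, 0.55 and 0.50.

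Conventional dendritic cells had no member called in either direction. In cDC1, 2 members were higher and 7 lower in Arg, where 5.12% of 7574 genes were called higher and 3.05% lower, and the median log2 ratio was -0.14 against 0.03. Ciita was at 0.849 of the Control level (0.753 to 0.958), Cd74 at 0.883 (0.867 to 0.899) and H2-Aa at 0.943 (0.927 to 0.960), while H2-DMb2 was 1.24-fold higher (1.08 to 1.41). Summed cDC1 markers in this class were at 3342 CPM in Arg and 4130 CPM in Control. Those of mature dendritic cells were at 159 and 58.8 CPM, of B cells at 30.8 and 1.90 CPM and of macrophages at 838 and 601 CPM. Those of neutrophils (34.9 and 56.9 CPM) and fibroblasts (4.69 and 16.8 CPM) were lower in Arg. Cluster 102 held 22.8% of Arg and 7.65% of Control cDC1. Whether this mix bears on the differences in this class was not tested. In cDC2, 7 members were higher and 2 lower, where 3.02% of 7226 genes were called higher and 3.57% lower, with a median of 0.12 against 0.02. H2-Aa was at 1.04-fold (1.02 to 1.06), Cd74 at 0.987-fold (0.968 to 1.01) and H2-DMa at 1.25-fold (1.16 to 1.34). In pDC 7 members were higher and 2 lower and none was called, where 4.97% of 8004 genes were called higher and 3.22% lower, with a median of 0.09 against 0.05. H2-Aa was there at 1.10-fold (1.04 to 1.15) and Cd74 at 1.01-fold (0.967 to 1.05).

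Mature dendritic cells, which express Ccr7, the receptor that guides cells to lymph nodes, had all 9 members higher in Arg and 4 called, where 4.71% of 7729 genes were called higher and 8.02% lower. The median log2 ratio was 0.57 against -0.04. H2-DMb2 was 1.74-fold higher (1.40 to 2.16) on 241 and 131 UMIs, Cd74 1.54-fold (1.49 to 1.59), H2-Eb1 1.53-fold (1.47 to 1.60), H2-Ab1 1.51-fold (1.44 to 1.58) and H2-Aa, which was not called, 1.48-fold (1.44 to 1.53). All 4 calls were lost without the mitochondrial filter, at log2 ratios between 0.27 and 0.35. That of H2-DMb2 was also lost with doublets kept (0.19) and at 1 common mix of clusters (0.51), and turned to -0.35 at cluster resolution 0.5. Those of Cd74, H2-Eb1 and H2-Ab1 were lost under 5, 3 and 3 of 12 alternatives. Summed markers of T cells in this class were at 916 CPM in Arg and 1229 CPM in Control, those of cDC2 at 1073 and 717 CPM, those of cDC1 at 825 and 1083 CPM, those of monocytes at 632 and 908 CPM and those of macrophages at 274 and 512 CPM. Whether these cells bear on the difference was not tested. B cells, with 29 cells in Control, are given side by side without a ratio: H2-DMa had 26 and 50 UMIs, H2-DMb1 5 and 32, and H2-DMb2 43 and 46.

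**Figure D2:**
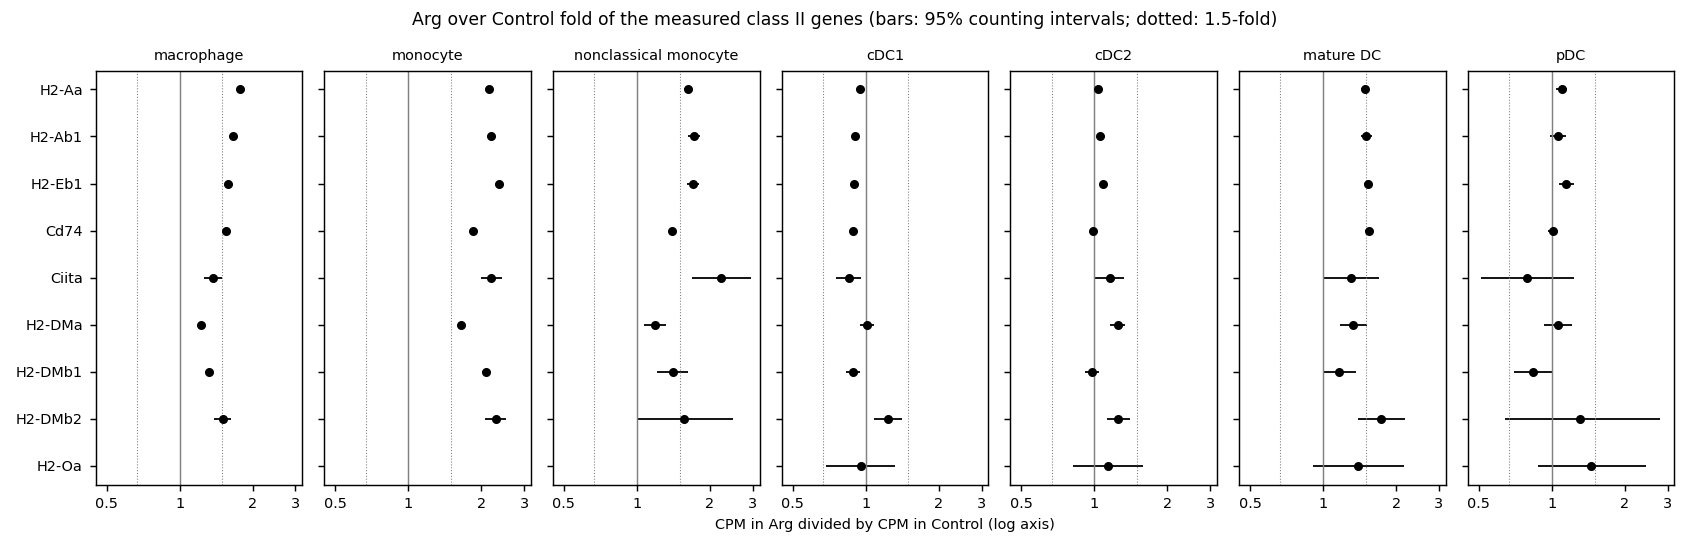
Arg over Control fold of CPM (log axis) for the measured members in 7 classes, with 95% counting intervals and dotted lines at 1.5-fold in each direction. The points of monocytes lie between 1.65 and 2.35, those of macrophages, nonclassical monocytes and mature dendritic cells mostly between 1.2 and 1.8, and those of cDC1, cDC2 and pDC around 1.

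Markers of dendritic cells in the monocyte and macrophage classes were measured, since such cells would carry class II transcripts. The 6 cDC2 markers summed to 332 CPM in Arg and 158 CPM in Control monocytes and to 266 and 199 CPM in macrophages, against 2370 and 2132 CPM in cDC2. The 7 cDC1 markers summed to 486 and 312 CPM in monocytes and to 457 and 469 CPM in macrophages, against 3342 and 4130 CPM in cDC1. The 7 markers of mature dendritic cells summed to 31.0 and 26.3 CPM in monocytes and 31.8 and 17.8 CPM in macrophages. The 8 B cell markers summed to 1.84 and 3.11 CPM in monocytes and to 5.36 and 12.1 CPM in macrophages. No cDC1, cDC2 or mature dendritic cell marker was at 0 in these classes. The cDC2 markers were higher in Arg in each class, and their part in the class II difference was not tested.

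Macrophages and monocytes each hold several clusters, and these took different shares in the libraries. Cluster 4, led by Mmp13, Mmp12 and Arg1, held 56.8% of Arg and 16.9% of Control macrophages, while cluster 2, led by the complement genes C1qa, C1qb and C1qc, held 26.3% and 45%. H2-Aa was at 1589 CPM in Arg and 598 CPM in Control in cluster 4, a 2.66-fold difference (2.58 to 2.73). In cluster 2 it was at 5276 and 2435 CPM, or 2.17-fold (2.14 to 2.19). In cluster 3, led by cell cycle genes such as Mki67, it was at 2124 and 1387 CPM, or 1.53-fold (1.5 to 1.57). The cluster richest in Arg was thus the one with the lowest H2-Aa in Arg. Cluster 10, led by Lyve1, Ednrb and Cd163, had H2-Aa at 3321 CPM in Arg and 582 CPM in Control, 5.71-fold higher in Arg (5.54 to 5.89), with 384 and 1025 cells. There H2-Eb1 was 5.24-fold higher (5.02 to 5.46), Cd74 3.81-fold (3.72 to 3.91), Ciita 3.47-fold (2.54 to 4.74) and H2-DMa 2.01-fold (1.84 to 2.2).

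With the clusters weighted to 1 common mix, H2-Aa in macrophages was at 3245 CPM in Arg and 1339 CPM in Control, or 2.42-fold in place of 1.77-fold. Ciita became 1.97-fold and H2-DMa 1.48-fold. The median log2 ratio over the members moved from 0.56 to 0.88.

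Among monocytes, cluster 0, led by Ly6i and holding Ly6c2 among its leading genes, made up 68.5% of the Arg and 43.3% of the Control cells. Cluster 1, led by Cxcl3, Thbs1 and Vcan, made up 18.7% and 44.7%. H2-Aa was at 6449 CPM in Arg and 4229 CPM in Control in cluster 0, or 1.53-fold (1.51 to 1.55), and at 3034 and 1084 CPM in cluster 1, or 2.80-fold (2.72 to 2.88). In cluster 13, led by interferon-induced genes such as Rsad2 and Ifit2, it was at 2667 and 1719 CPM, or 1.55-fold (1.49 to 1.61). The class II-rich cluster 0 was the larger one in Arg, and at 1 common mix the fold of H2-Aa in monocytes was 1.68 in place of 2.15, with a median log2 ratio of 0.71 in place of 1.06. Each of these clusters had H2-Aa higher in Arg. In the mature dendritic cells, H2-Aa was 2.52-fold higher in cluster 103 (2.37 to 2.69; 32 and 31 cells), 1.26-fold in cluster 106 (1.21 to 1.31) and 1.40-fold in cluster 109 (1.30 to 1.52). The cDC1 and cDC2 clusters lay between 0.911-fold and 1.06-fold.

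**Figure D3:**
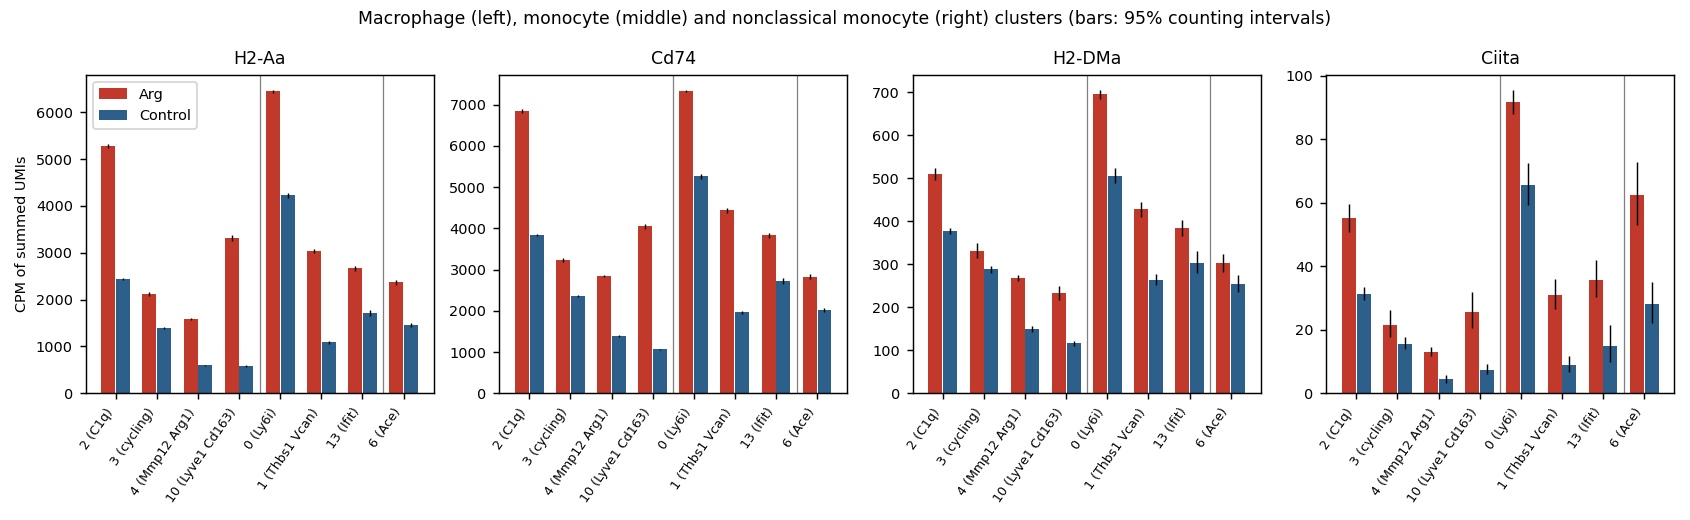
CPM of H2-Aa, Cd74, H2-DMa and Ciita in the 4 macrophage clusters, 3 monocyte clusters and 1 nonclassical monocyte cluster, with 1 bar per library and 95% Poisson intervals. The Arg bar is the taller one in each cluster for these 4 genes, and the largest fold of those drawn is that of H2-Aa in cluster 10 (3321 against 582 CPM).

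Per cell, the summed UMIs of H2-Aa, H2-Ab1, H2-Eb1 and Cd74 were taken as a percentage of all UMIs of the cell. The median monocyte had 1.63% in Arg and 0.394% in Control, and the quartiles were 0.539% and 2.52% in Arg and 0.0708% and 1.34% in Control. The median macrophage had 0.555% and 0.247%, and the 90th percentile was 2.59% and 1.86%. The spread among cells of 1 class was therefore wider than the difference between the library medians. In cluster 10 the medians were 0.796% and 0.086%. Mature dendritic cells were at 1.61% and 0.671%, cDC2 at 2.86% and 2.84% and cDC1 at 2.38% and 2.64%. T cells were at 0.040% and 0.018% and NK cells at 0.041% and 0.021%.

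**Figure D4:**
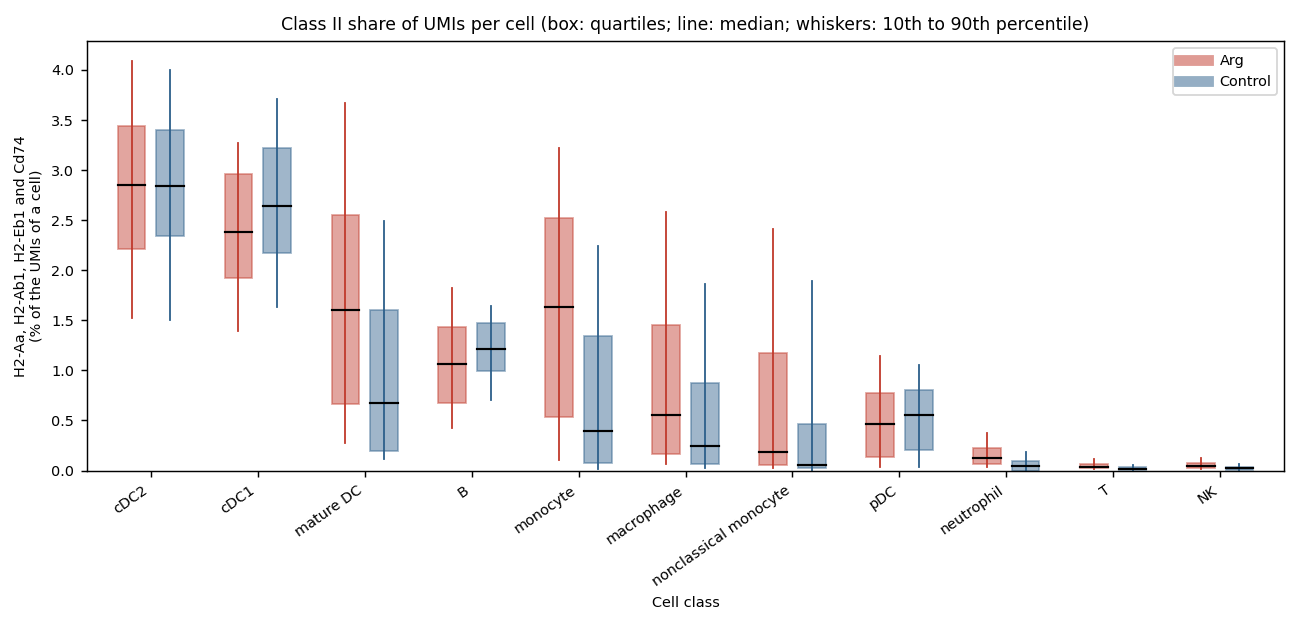
Percentage of the UMIs of a cell that came from H2-Aa, H2-Ab1, H2-Eb1 and Cd74, by class and library, with quartile boxes, the median as a line and whiskers from the 10th to the 90th percentile of cells. The boxes of cDC2 and cDC1 largely coincide between libraries, whereas the median of monocytes is at 1.63% in Arg and 0.394% in Control.

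The share of cells with at least 1 UMI was taken after thinning each cell to 2000 UMIs, which left out 173 Arg and 175 Control macrophages and 97 and 47 monocytes as too shallow. H2-Aa was found in 87.0% of Arg (85.8 to 88.1) and 64.8% of Control monocytes (62.3 to 67.2), and in 74.4% (72.9 to 75.8) and 58.9% (57.4 to 60.3) of macrophages. Lymphocytes gave 29.1% in Arg (27.5 to 30.7) and 13.4% in Control (12.2 to 14.7), the background of this measure, with T cells at 29.0% and 13.4% and NK cells at 29.3% and 13.4%. Unthinned, the shares were 93.9% and 77.4% in monocytes, 92.5% and 83.3% in macrophages and 64.9% and 38.8% in lymphocytes, at median depths of 8481 and 8207, 9873 and 12728, and 6595 and 7458 UMIs. Cells with UMIs of H2-Aa, H2-Ab1 and H2-Eb1 together made up 73.3% (71.8 to 74.7) and 43.7% (41.2 to 46.3) of monocytes and 50.03% (48.3 to 51.7) and 35.5% (34.1 to 36.9) of macrophages, with 2.40% (1.9 to 3.0) and 0.641% (0.381 to 1.01) of lymphocytes. Ciita was found in 12.4% (11.3 to 13.5) and 5.98% (4.83 to 7.30) of monocytes, with 0.632% and 0.356% of lymphocytes.

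The list of class II regulators held 18 genes, and in macrophages 12 of 15 measured regulators were higher in Arg and 4 were called, where 5.38% of all genes tested were called higher, with a median log2 ratio of 0.07 against -0.0021. Socs1, an inhibitor of interferon signalling that interferon itself induces, had the highest ratio, at 128 CPM in Arg and 48.9 CPM in Control (2.63-fold, 2.51 to 2.75), followed by Irf1, an interferon-induced transcription factor, at 293 and 169 CPM. Spi1, which encodes the myeloid factor PU.1, was at 250 and 309 CPM and Nfyb, a subunit of the Y box factor NF-Y, at 21.6 and 26 CPM. In monocytes 12 of 15 were higher and 2 were called, Socs1 at 301 and 132 CPM and Irf1 at 440 and 231 CPM, where 2.13% of all genes were called higher, with a median of 0.16 against 0.06. The lowest ratios there were those of Ifngr1, a chain of the interferon gamma receptor, at 125 and 168 CPM, and Nfyb at 30.1 and 33.2 CPM. Nonclassical monocytes had 9 of 16 higher and 2 called, Irf1 at 951 and 562 CPM and Socs1 at 248 and 149.5 CPM, where 4.85% of all genes were called higher, with a median of 0.13 against 0.05. The lowest were Nfyb at 23.6 and 36.8 CPM and Rfxap, a subunit of the X box factor RFX, at 36.8 and 47.0 CPM. Socs1 and Irf1 thus had the highest ratios of the list in each of these 3 classes.

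In cDC1 8 of 15 regulators were higher (median 0.10 against 0.03), where 5.12% of all genes were called higher, with Prdm1, a repressor of Ciita, called at 20.1 and 4.11 CPM, and Socs1 at 216 and 149 CPM. The lowest ratios were those of Ifngr1, at 96.2 and 140 CPM, and Irf8, a factor that cDC1 depend on, at 1788 and 2259 CPM. In cDC2 9 of 16 were higher (median 0.08 against 0.02), where 3.02% of all genes were called higher and 3.57% lower. Socs1 was called higher at 235 and 128 CPM, Prdm1 was at 35.7 and 22.9 CPM, and Irf4, a factor of cDC2, at 42.6 and 92.1 CPM and Ifngr1 at 112 and 242 CPM were called lower. Mature dendritic cells had 6 of 16 higher (median -0.16 against -0.04), where 4.71% of all genes were called higher, with Prdm1 called at 54.3 and 31.1 CPM and Spi1 at 243 and 178 CPM. Socs1, at 146 and 217 CPM, and Ifngr1, at 146 and 216 CPM, were lower there. In pDC 8 of 17 were higher (median -0.010 against 0.05), with 4 called higher and 1 lower, where 4.97% of all genes were called higher and 3.22% lower. The highest ratios were those of Ifngr1, at 122 and 54.2 CPM, and Socs1, at 72.6 and 41.5 CPM, and the lowest those of Irf4, at 32.7 and 54.2 CPM, and Creb1, at 69.2 and 81.7 CPM.

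The list for invariant chain cleavage and class II turnover held 8 genes. In macrophages 5 of 8 were higher in Arg, with a median log2 ratio of 0.32 against the -0.0021 of all genes. Of the 8, 1 was called, Ctsl, a cathepsin, at 4005 and 1799 CPM (2.23-fold, 2.21 to 2.24), where 5.38% of all genes were called higher. Ctss, the main protease of the invariant chain in dendritic cells and B cells, was at 2807 and 1911 CPM there, and Ifi30, a lysosomal thiol reductase, at 482 and 503 CPM. Monocytes had 5 of 8 higher, with a median of 0.19 against 0.06, where 2.13% of all genes were called higher. March1, a ubiquitin ligase that sends class II to degradation, was called at 119 and 69.7 CPM, and Sppl2a, which cuts the membrane stub of the invariant chain, was at 362 and 250 CPM. Lgmn, another endosomal protease, was at 556 and 745 CPM. Nonclassical monocytes had 5 of 8 higher, March1 at 206 and 147 CPM and Cd83 at 574 and 472 CPM, with Ctsl called lower at 219 and 363 CPM and Ifi30 at 338 and 449 CPM. The median there was 0.11 against 0.05, and 2.44% of all genes were called lower.

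Cd83, which opposes the action of March1, was at 227 CPM in Arg and 330 CPM in Control in monocytes and at 207 and 250 CPM in macrophages. In cDC1 it was at 507 and 840 CPM, in cDC2 at 380 and 719 CPM and in mature dendritic cells at 703 and 1052 CPM. Cd83 was lower in Arg in each of these 5 classes, unlike the class II chains in monocytes, macrophages and mature dendritic cells. It was called in cDC1 and cDC2, where 3.05% and 3.57% of all genes were called lower. Of the 7 measured genes of the list, 6 were higher in cDC1, with Ctsl called at 302 and 75.6 CPM, Ctss at 614 and 449 CPM and March1 at 141 and 139 CPM. The median there was 0.06 against 0.03, and 5.12% of all genes were called higher. In cDC2 5 of 7 were higher (median 0.06 against 0.02), Sppl2a at 307 and 223 CPM and March1 at 97.7 and 74.0 CPM, while Lgmn was at 95.9 and 128 CPM. Mature dendritic cells had 4 of 7 higher (median 0.16 against -0.04), where 4.71% of all genes were called higher. Ctss was called there at 660 and 412 CPM, with Ifi30 at 608 and 430 CPM and Ctsl at 69.8 and 90.4 CPM. In pDC 4 of 7 were higher (median 0.17 against 0.05) and none was called, where 4.97% of all genes were called higher and 3.22% lower. Ifi30 was there at 355 and 262 CPM, Cd83 at 80.2 and 58.2 CPM, Lgmn at 129 and 195 CPM and March1 at 69.2 and 81.7 CPM.

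Outside the 9 members, the genes whose levels over the 26 profiles were most like H2-Aa were Gm20513 (r = 0.937), Plekho1 (0.934) and Irf5 (0.932). For Cd74 they were Plekho1 (0.953), Ifi30 (0.948) and Gm20513 (0.925), for Ciita Gm20513 (0.960), Gm36486 (0.904) and Ifi30 (0.883), and for H2-Oa Btla (0.902), Mtmr4 (0.858) and H2-Ob (0.849). Ifi30 and H2-Ob belong to the lists above. Gm20513 overlaps H2-Eb1, so its likeness cannot be taken as independent of that member.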

How the data were processed

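The deposited matrices hold raw counts of UMIs per gene and cell barcode, not normalized, from CD45+ tumour cells on the 10x 3′ v3 platform, per the labels. The file headers give Cell Ranger 7.0.1, but version 2.2.2, with GRCm38, stands in the submitters' processing notes, and neither states whether introns or strand were used. Totals were 155927693 UMIs in 14540 barcodes (Arg) and 191505551 in 14343 (Control). Kept barcodes had 200 or more genes, 500 or more UMIs and no more than 10% from mitochondrial genes. Scrublet doublets, 884 and 687, were removed, which left 12991 and 12800 cells.

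Cells were scaled to 10000 UMIs, log-transformed and clustered by Leiden (resolution 1, 2000 variable genes without class II genes, 30 components, 20 neighbours, no batch correction, seed 1). Dendritic and B clusters were clustered again after 1 cluster had been seen to mix cDC1 and mature dendritic cells. A cluster took the name of the marker set with the highest mean log2 fold, at least 0.5, with 3 markers in 20% of its cells. The thresholds were set with clusters known. Clusters 9 and 18, with a Ptprc level of 41.1 and 42.4 CPM in Arg, and low-UMI cluster 12 were not described as a cell type. By this rule cluster 9 took the fibroblast name, under which it entered the 26 profiles.

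Counts were summed per class and library, with exact Poisson intervals, exact binomial intervals of the fold, and Clopper-Pearson intervals of shares. With 1 library per group there is no test. Classes under 30 cells in a library were not compared. All members were named, and of the other lists the measured genes with the 2 highest and 2 lowest ratios per class, as were the 3 genes most like H2-Aa, Cd74, Ciita and H2-Oa. H2-Ob in B cells was named after its values were seen. The members and lists were chosen with earlier results of these data known. GENCODE M21 matched 32158 of 32285 identifiers. Scripts were checked on simulated data. Software was Python 3.11.15 (scanpy 1.11.5, scipy 1.17.1) and R 4.3.3 with edgeR 4.0.16, used for TMM factors only.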

Additional observations from a re-analysis of the deposited data

Results flagged for a closer look

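For 6 members the Arg over Control difference lay on opposite sides of 0 in monocytes and in cDC1, with counting intervals that did not overlap 0 in either class. No member was called in cDC1, and members took the other direction there in 12 of 108 alternatives. The median log2 ratio in cDC1 was -0.14 as reported but 0.095 with classes from marker scores per cell. The difference between the classes was not tested, since each library is a single sample. Between monocytes and cDC1 the log2 ratios differed by 1.19 for H2-Aa, 1.28 for H2-Ab1, 1.39 for H2-Eb1, 1.06 for Cd74, 1.26 for Ciita and 1.22 for H2-DMb1. The other measured members had no such split: H2-DMa was at 1.65-fold in monocytes (1.60 to 1.70) and 1.02-fold in cDC1 (0.950 to 1.08), and H2-DMb2 at 2.29-fold (2.07 to 2.53) and 1.24-fold (1.08 to 1.41).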

How the results depend on the processing

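The median log2 ratio of the members stayed above 0 in macrophages (0.48 to 0.95 over 14 alternatives, 0.56 as reported), monocytes (0.71 to 1.11, 1.06 as reported), nonclassical monocytes (0.50 to 0.96 over 9, 0.59 as reported) and mature dendritic cells (0.32 to 1.43, 0.57 as reported). It changed sign in cDC1, cDC2 and pDC under at least 1 alternative. At cluster resolution 0.5 it was 0.71 in macrophages, 0.74 in monocytes, -0.064 in cDC1, -0.041 in cDC2, 0.32 in mature dendritic cells and -0.14 in pDC. At cluster resolution 2 it was 0.76 in macrophages, 0.84 in monocytes, -0.094 in cDC1, 0.044 in cDC2 and -0.091 in pDC. With class II genes used for clustering it was 0.74 in macrophages, 0.81 in monocytes and 0.50 in mature dendritic cells. With genes centred within libraries it was 0.95 in macrophages, 1.03 in monocytes, -0.10 in cDC1, 0.036 in cDC2, 0.47 in mature dendritic cells and -0.091 in pDC. With classes from marker scores per cell it was 0.79 in macrophages, 0.095 in cDC1, 0.22 in cDC2, 1.43 in mature dendritic cells and -0.27 in pDC. With TMM scaling it was 0.54 in macrophages, 1.01 in monocytes and 0.62 in mature dendritic cells. With the lymphocyte level subtracted it was 0.54 in macrophages. With no filter on mean CPM it was 0.48 in macrophages. At 1 common mix of clusters it was 0.88 in macrophages, 0.71 in monocytes, -0.094 in cDC1, 0.070 in cDC2, 0.51 in mature dendritic cells and -0.13 in pDC. With doublets kept it was 1.01 in monocytes, -0.085 in cDC1, 0.050 in cDC2 and 0.81 in mature dendritic cells. Without the mitochondrial filter it was 0.85 in monocytes, -0.045 in cDC1, 0.32 in mature dendritic cells and -0.10 in pDC. With the stricter cell filter it was 0.49 in mature dendritic cells. The settings also changed how many cells a class held. Arg macrophages numbered 3521 as reported, 1208 with class II genes used for clustering and 1375 with genes centred within libraries. They numbered 2206 with marker scores per cell and 4256 at resolution 0.5. Arg cDC1 numbered 167 as reported and 636 with marker scores. The alternatives thus compare partly different cells, and the cause of these moves was not tested. H2-DMb2 in mature dendritic cells turned to -0.35 at resolution 0.5, from 0.76. Single members kept their direction in 96 of 96 alternatives in macrophages, 96 of 96 in monocytes, 56 of 56 in nonclassical monocytes, 96 of 108 in cDC1, 91 of 108 in cDC2, 106 of 108 in mature dendritic cells and 72 of 108 in pDC. The 4 calls in macrophages were kept under each of 12 alternatives. TMM factors moved all genes of a class by at most 0.06 on the log2 scale. Nonclassical monocytes gave no value with doublets kept, at resolution 0.5 and 2, with class II genes used and with centring, since no class of at least 30 cells per library took that name.

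No paired analysis was possible because each group is 1 library and the labels carry no replicate numbers. With 1 library per diet, diet cannot be told apart from mouse, tumour, sorting and library. The lymphocyte level was higher in Arg for each member.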

Other observations

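Class II transcripts were also counted in cells outside the classes compared. Neutrophils numbered 229 in Arg and 440 in Control, with median depths of 2203 and 2166 UMIs. They had H2-Aa at 1289 CPM (1198 to 1384) and 592 CPM (550 to 636) and Cd74 at 1047 and 726 CPM. Their H2-Aa stood 6.28-fold and 5.35-fold above the CPM of lymphocytes, whose median depths were 6595 and 7458.5 UMIs. Neutrophils held 748 and 741 UMIs of H2-Aa in their 229 and 440 cells, and lymphocytes 5722 and 2853 in 3267 and 2874 cells. How far depth bears on the CPM of neutrophils was not tested. Unthinned, H2-Aa was found in 65.9% and 34.8% of neutrophils, against 64.9% and 38.8% of lymphocytes. After thinning it was found in 58.0% and 32.2%, against 29.1% and 13.4%. Mast cells or basophils, at median depths of 3000 and 2896 UMIs, had H2-Aa at 415 and 218 CPM. It was found in 55.3% and 35.7% of them unthinned, and in 35.7% and 17.1% after thinning. Whether the H2-Aa of these cells or of neutrophils is free RNA was not tested. Plasma cells, 24 and 8, had Cd74 at 1320 CPM (1198 to 1450) and 612 CPM (490 to 753) and H2-Aa at 453 and 236 CPM, and no UMI of H2-Oa, which their counts limit to 9.19 CPM in Arg and 20.8 CPM in Control. Cluster 12, cells of low depth led by Cmss1 and Gm42418, had H2-Aa at 2046 and 834 CPM. Cluster 22, at median depths of 4206 and 3201 UMIs, was left unnamed as shallow. T cells were its closest marker set, and Wfdc21, Cd8a, Lag3 and Dcstamp were among its leading genes. It had H2-Aa at 3822 CPM (3715 to 3932) and 886 CPM (818 to 959) in 133 and 136 cells. Whether its barcodes mix cell types was not tested. Clusters 9 and 18, low in Ptprc, had H2-Aa at 181 and 93.6 CPM and at 195 and 76.6 CPM, near the lymphocyte CPM of each library. Their median depths were 31582 and 27511 UMIs and 49906 and 46569.5 UMIs. These are above the depth of lymphocytes, so an equal CPM means more UMIs per cell. H2-Aa was higher in Arg in each of these groups, of which plasma cells, with 8 cells in Control, are too few to compare.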
